A study of Homo sapiens with 12 samples.

Results

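The transcripts of 10 surface marker genes of blood cells were followed in K562 cells, a human erythroleukaemia line labelled as bone marrow, with the heme transporter HRG1 (encoded by SLC48A1) intact or knocked out. The 10 genes were taken by symbol from the 28278 genes of the count table: PTPRC, CD34, KIT, CD33, CD38, CD44, CD36, CD47, CD24 and ESAM. PTPRC was chosen by its counts near 0 in the knockout, and CD24 and ESAM by the difference between their butyrate responses in the 2 genotypes, so those values are described below with no test. Bulk RNA sequencing covered 4 groups of 3 libraries, namely WT control cells, HRG1-KO control cells, WT cells given sodium butyrate and HRG1-KO cells given sodium butyrate. Butyrate, a histone deacetylase inhibitor that drives K562 cells towards the erythroid lineage, was added at 0.75 mM 24 h after plating and a second time 48 h later, and RNA was collected 6 h after that second dose. The series places all samples at day 8 of differentiation, and both genotypes share the line and its medium. The labels state neither how the knockout was made nor how many clones it comprised, nor whether the 3 libraries of a group came from separate cultures, so p-values measure the spread between these libraries only.

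The 10 proteins sit on the outside of blood cells at different stages. CD34 and KIT, the receptor for stem cell factor, mark stem and progenitor cells, CD38 appears as progenitors commit, CD33 is a sialic acid binding receptor of myeloid cells, and PTPRC encodes CD45, the tyrosine phosphatase found on nearly all nucleated blood cells and lost as red cells mature. CD44 binds hyaluronan, CD24 is a small glycoprotein held by a lipid anchor, ESAM is an adhesion molecule of endothelial cells, platelets and some stem cells, CD36 is a scavenger receptor that also binds thrombospondin, and CD47 tells macrophages not to engulf the cell by binding SIRPA.

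Promoter sequence is shown for 4 members that behaved differently below: PTPRC, which was near absent from KO cells under both conditions, CD24, which was near absent from untreated KO, KIT, which was higher in KO, and CD47, whose genotypes overlapped. Of the 10 members, 9 matched the RefSeq promoter table (build GRCh38.p14). Each stretch lies within the 250 bases upstream of a RefSeq transcript start and outside every exon of the GENCODE 29 annotation, and reads 5′ to 3′ on the gene's strand. The PTPRC and CD24 stretches lie inside the RefSeq spans of their genes, chr1:198638713-198757476 and chr6:106969831-106976855. Each of these 2 therefore precedes an inner transcript start and not the outermost start of its gene. Capitals mark, on either strand, AGGAAG (the core bound by ETS factors), GGGCGG (the GC box) and the GATA words, which are AGATAA or AGATAG, as well as TGATAA or TGATAG. The stretches are chr1:198638790-198638967 on the plus strand for PTPRC, chr6:106975628-106975877 on the minus strand for CD24, chr4:54657707-54657917 on the plus strand for KIT and chr3:108091032-108091281 on the minus strand for CD47.
PTPRC: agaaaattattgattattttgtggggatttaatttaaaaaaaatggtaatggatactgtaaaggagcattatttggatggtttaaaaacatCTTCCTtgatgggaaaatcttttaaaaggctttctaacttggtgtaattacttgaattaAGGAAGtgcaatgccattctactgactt
CD24: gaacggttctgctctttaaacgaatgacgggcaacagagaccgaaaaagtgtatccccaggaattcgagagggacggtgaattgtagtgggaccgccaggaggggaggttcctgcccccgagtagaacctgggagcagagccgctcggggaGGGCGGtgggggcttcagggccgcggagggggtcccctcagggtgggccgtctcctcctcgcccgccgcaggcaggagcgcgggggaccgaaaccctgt
KIT: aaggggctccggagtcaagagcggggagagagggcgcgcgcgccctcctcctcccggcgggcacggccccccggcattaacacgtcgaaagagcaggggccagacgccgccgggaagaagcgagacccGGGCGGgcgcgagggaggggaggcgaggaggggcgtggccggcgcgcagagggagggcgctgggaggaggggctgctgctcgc
CD47: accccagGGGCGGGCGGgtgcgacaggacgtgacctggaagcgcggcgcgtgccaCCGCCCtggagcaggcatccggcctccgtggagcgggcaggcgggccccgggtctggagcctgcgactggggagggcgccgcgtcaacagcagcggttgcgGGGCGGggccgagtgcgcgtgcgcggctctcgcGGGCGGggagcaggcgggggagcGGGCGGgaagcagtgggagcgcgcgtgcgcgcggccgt

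The full 250-base windows behind these stretches differed in composition. The PTPRC window held 1 CpG and 31.2% G and C, against medians of 11 CpG and 58.0% over 35116 promoter windows of the same length, and had 3 ETS core matches, of which 2 lie in the stretch shown. The CD24, KIT and CD47 windows held 20, 34 and 39 CpG, with 1, 1 and 6 GC box matches, counting overlapping ones. Among all windows 28.7% had an ETS core match, 42.6% a GC box and 22.3% a GATA word, and none of these 4 windows had a GATA word. The CD24 window is the first of 3 in the table. PTPRC and this CD24 window thus shared neither the ETS core nor the GC box. A match describes letters only, and binding was not measured.

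Library totals lay between 19963594 and 30348538 counts. SLC48A1 was lower in every KO library than in every WT library, at 73.7 ± 8.42 CPM (counts scaled to library size, SD, n = 3) in untreated WT and 5.94 ± 2.74 CPM in untreated KO. On the second principal component of the 12 libraries, replicate 1 of treated WT lay at 40.9, among the untreated libraries at 15.3 to 75.6, and replicate 1 of treated KO at 4.21, while the other treated libraries lay between -84.8 and -74.3. Results that rest on these libraries are given with and without them. The 11 genes fixed as K562 markers all passed the filter on low counts. At an edgeR adjusted p under 0.05, 1 of them was higher and 3 lower in untreated KO, where 22.6% of all genes passed. In treated KO 0 were higher and 3 lower, where 19% of all genes passed. GATA1, the erythroid transcription factor, averaged 302 CPM in untreated WT and 177 CPM in untreated KO. Of defining markers of other cell types, MS4A1 (B cells), CEACAM8 (granulocytes), CDH5 and KDR (endothelium) held 0 counts in all 12 libraries. MS4A1 was the 1 of 4 B cell markers at 0 throughout, so B cell markers were not all absent, and their sum is not reported here. Other markers were present at levels that varied with the groups, given here in the order untreated WT, treated WT, untreated KO and treated KO. The 6 T cell markers summed to 7.01 to 16.9, 12.4 to 19.3, 10.3 to 29.1 and 43.7 to 67.4 CPM, and the 2 granulocyte markers to 0.271 to 4.32, 2.90 to 4.69, 15.9 to 55.8 and 59.6 to 68.5 CPM. CD7 averaged 50.9 CPM in treated KO and made up most of that T cell sum, while CD3D was lower in KO. With CEACAM8 at 0 counts, the granulocyte sum is that of CSF3R alone. The 4 megakaryocyte markers summed to 33.1 to 60.3, 117 to 227, 15.1 to 55.3 and 80.6 to 118 CPM, and the 5 endothelial ones to 0.650 to 1.39, 4.07 to 7.43, 0.334 to 1.28 and 5.35 to 15.6 CPM. The 4 monocyte and macrophage markers stayed at or below 5.55 CPM in every library. Their part in the results below was not tested.

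**Figure D1:**
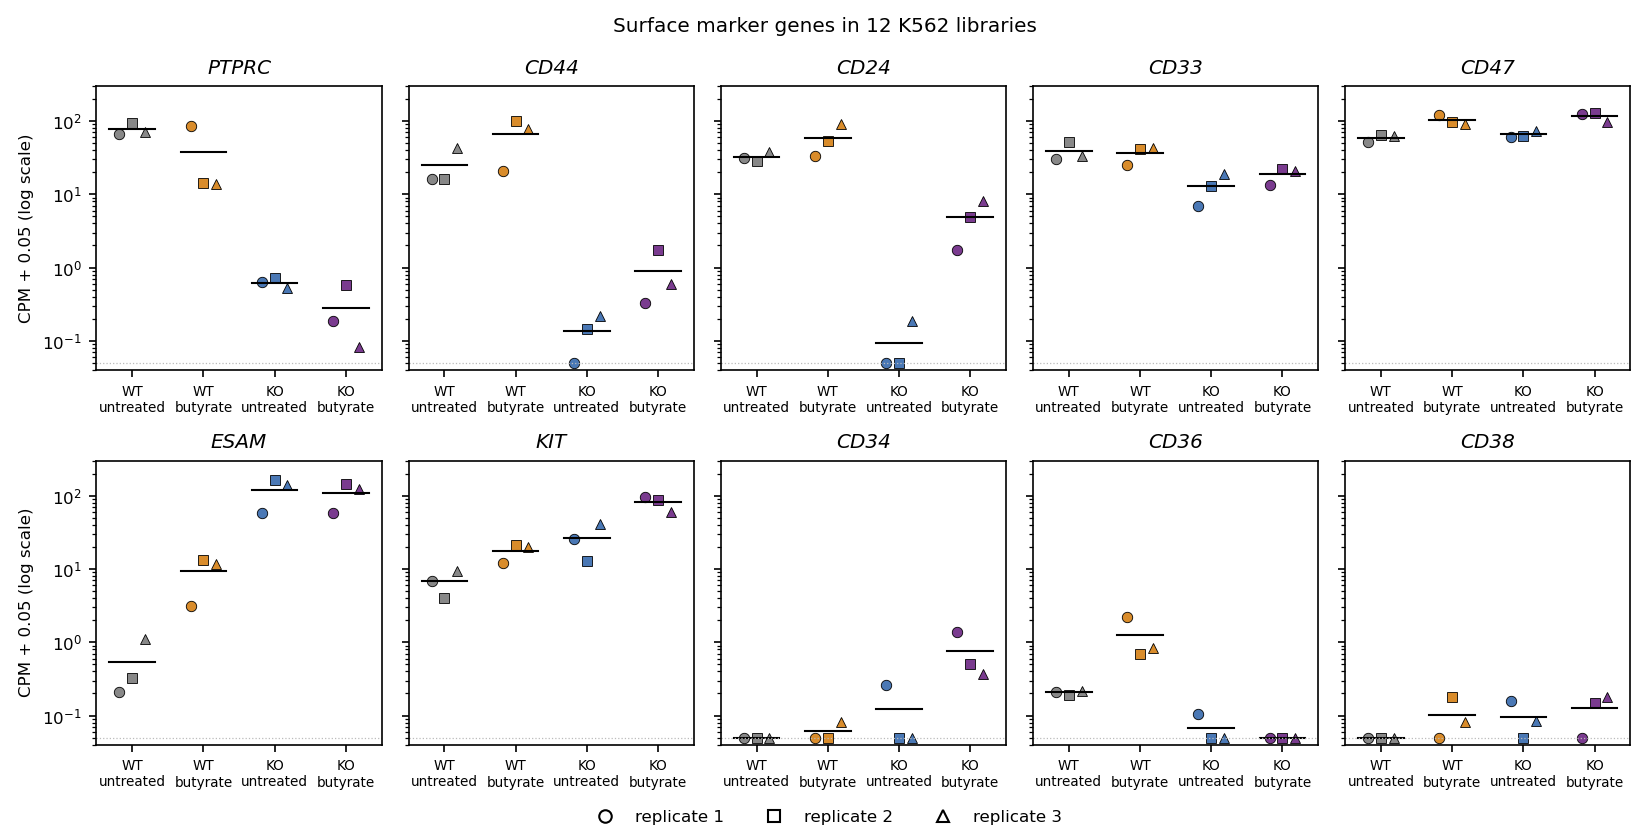
Library-scaled counts (CPM) of the 10 genes in each library, plotted as CPM + 0.05 on a log axis, with 1 marker per library (shape gives the replicate number), a bar for the mean of each group of 3 and a dotted line at 0 counts. PTPRC, CD44 and CD24 lie lower in untreated KO than in WT by more than a factor of 10 on this axis, ESAM lies higher, and CD38 lies at or near 0 in all 12 libraries.

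Compared per kilobase of exon, so that genes of different length can be set side by side, CD24 led in untreated WT at 10.5 ± 1.64 CPM per kb (SD, n = 3), followed by PTPRC at 8.37 ± 1.52, CD47 at 7.21 ± 0.854 and CD33 at 6.46 ± 1.92. The ranges of each adjacent pair in this order overlapped, so neighbours among these 4 levels do not differ beyond their spread. CD44 followed at 2.47 ± 1.51 and KIT at 1.20 ± 0.495, also overlapping, and ESAM at 0.169 ± 0.164, CD36 at 0.0144 ± 0.00141 and CD34 and CD38 at 0 closed the order. In untreated KO the order was another: ESAM came first at 41.4 ± 19.3 CPM per kb, with its lowest library at 19.6, above the highest CD47 library at 8.99. CD47 at 7.98 ± 0.878, KIT at 4.73 ± 2.47 and CD33 at 2.16 ± 1.03 followed, and PTPRC, CD24, CD44, CD34, CD38 and CD36 all averaged 0.0626 CPM per kb or less. After butyrate CD24 remained first in WT at 19.2 ± 9.60, and in KO ESAM at 37.0 ± 15.2 was followed by KIT at 14.5 ± 3.26 and CD47 at 14.2 ± 2.20.

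Of the 10 members, 8 passed the filter on low counts, and CD34 and CD38 did not. Between genotypes, read for KIT, CD33, CD44, CD36 and CD47 only, 3 members passed an edgeR adjusted p of 0.05 in untreated cells, CD44 and CD33 lower and KIT higher in KO, where 22.6% of the 15805 genes tested passed. In treated cells CD44 and CD36 were lower and KIT higher in KO, again 3 members, where 19% of all genes passed. CD36 had passed the filter on low counts through its treated WT libraries alone, and CD44 through its WT libraries alone. The genotype calls of CD36 and CD44 are thus no independent support. In the main fit, which does not pair libraries by replicate number, butyrate changed 0 members in WT. This was read for these 5 and PTPRC, where 2.35% of all genes passed. In the same fit butyrate changed 1 member, CD47, in KO, where 3.4% passed. Of the members read, KIT, CD44 and CD47 had an unadjusted p under 0.05 in edgeR in both genotypes, and CD36 in WT. The share of all genes at that unadjusted level was not computed here, so no excess among the members is read from this. Groups did not overlap for KIT, CD33, CD44 and CD36 between genotypes in either condition, where 42.3% of all genes did not overlap untreated and 33.9% treated. They did not overlap with butyrate for KIT, CD36 and CD47 in WT, where 21.7% of all genes did not, and for KIT, CD44 and CD47 in KO, where 24.4% did not. With the replicate number as a block, the members called with butyrate rose to 2 in WT (KIT and CD47) and 3 in KO (KIT, CD44 and CD47). DESeq2 gave the same numbers. In both settings more of all genes tested passed too, by the counts given in the last section.

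**Figure D2:**
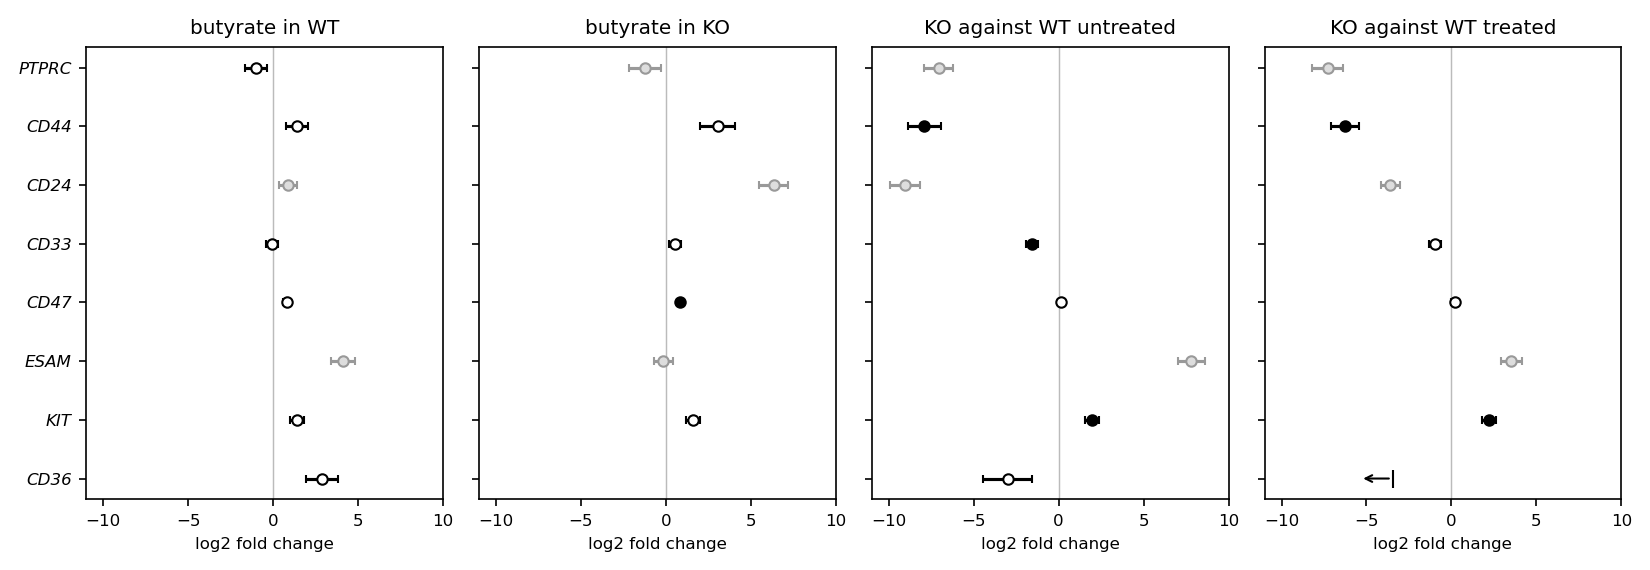
Log2 fold change of the 8 members that passed the filter in 4 comparisons, with bars of 1 standard error from edgeR. Filled black points passed an adjusted p of 0.05, open points did not, grey points are values that chose the members and carry no test, and the arrow marks a bound for CD36, whose treated KO libraries all held 0 counts (its change with butyrate in KO, near 0 counts in both groups, is left out).

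PTPRC lies on chromosome 1 from 198638457 to 198757476 (GENCODE 29, GRCh38, plus strand). It gave 1234, 1997 and 2104 counts in replicates 1, 2 and 3 of untreated WT, against 11, 14 and 14 in untreated KO. Treated KO held 3, 16 and 1. Every WT library was thus far above every KO library. In CPM the untreated means were 76.7 ± 13.9 in WT and 0.574 ± 0.0997 in KO (SD, n = 3 each), a log2 difference of -7.06, which ranked 248 from the lowest among 15805 genes. In these bulk samples fewer cells with the transcript and less transcript per cell cannot be told apart.

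Within WT, the treated libraries divided for PTPRC. Treated WT held 1655, 331 and 433 counts, or 85.8, 14.1 and 13.8 CPM, against 66.8, 92.7 and 70.7 CPM untreated. Replicates 2 and 3 of the treated group lay far below all 3 untreated libraries, and replicate 1 lay among them, as it did on the second principal component. With all libraries the log2 change was -1.02 (SE 0.65, edgeR adjusted p 0.447). Without replicate 1 of treated WT it was -2.47 (edgeR adjusted p 0.0104), and without the 4 libraries numbered 1 it was -2.56 (edgeR adjusted p 0.00585).

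CD44, on chromosome 11 from 35138870 to 35232402, was next to absent from untreated KO. It gave 295, 346 and 1255 counts in untreated WT and 0, 2 and 5 in untreated KO. Treated WT held 396, 2320 and 2476 counts and treated KO 6, 51 and 17. The genotypes did not overlap under either condition. KO was lower by a log2 difference of -7.91 (SE 0.99, edgeR adjusted p 1.09e-04) in untreated cells and -6.27 (SE 0.81, edgeR adjusted p 2.11e-04) in treated cells. The untreated difference ranked 181 from the lowest of all genes tested. CD44 passed the filter on low counts through its WT libraries alone, so these p-values are no independent support. In the fit without a filter the edgeR adjusted p was 5.01e-06 untreated and 1.15e-05 treated.

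The CD44 mean was higher after butyrate in both genotypes, going from 24.7 ± 15.1 to 66.1 ± 40.7 CPM in WT and from 0.0874 ± 0.0839 to 0.836 ± 0.748 CPM in KO. The treated and untreated ranges overlapped in WT, where replicate 1 of treated WT at 20.5 CPM lay below replicate 3 of the untreated group at 42.2. The log2 change was 1.42 in WT (SE 0.64, edgeR adjusted p 0.272) and 3.06 in KO (SE 1.03, edgeR adjusted p 0.12). With the replicate block the change in KO passed the threshold (edgeR adjusted p 0.0297). Without the libraries numbered 1 both changes passed, at 1.59 in WT (edgeR adjusted p 0.0498) and 2.97 in KO (edgeR adjusted p 0.0464). The untreated KO level rested on 7 counts over 3 libraries, so the pooled counts allow a ratio of 8.86 with a 95% counting interval of 4.09 to 22.8.

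CD24, on chromosome 6 from 106969831 to 106975627 on the minus strand, was close to 0 counts in untreated KO and higher in treated KO. It held 567, 611 and 1133 counts in untreated WT and 639, 1248 and 2884 in treated WT. In KO it held 0, 0 and 4 counts untreated and 37, 149 and 252 treated. Each treated KO library exceeded each untreated KO library, while all treated KO libraries, at 1.70 to 8.12 CPM, stayed below the lowest WT library at 28.4 CPM. The log2 change with butyrate was 0.87 in WT and 6.35 in KO, and the difference of the 2 responses, which chose the gene, was 5.47. CD24 has near-identical copies elsewhere in the genome, so reads may have been split among them and its values are uncertain.

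ESAM, on chromosome 11 from 124752583 to 124762290 on the minus strand, went the other way. Untreated WT held 3, 6 and 31 counts and treated WT 59, 308 and 366. In KO it held 1067, 3444 and 4237 counts untreated and 1263, 4346 and 3791 treated. Untreated KO, at 121 ± 56.3 CPM, was thus far above both WT groups, whose highest library reached 13.1 CPM. The log2 change of ESAM with butyrate was 4.11 in WT and -0.16 in KO, where the treated range of 58.0 to 144 CPM lay within the untreated range of 57.1 to 164. Replicate 1 was the lowest library of each of the 4 groups.

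KIT, the receptor for stem cell factor, was higher in KO under both conditions. The gene, on chromosome 4 from 54657918 to 54740715, gave 124, 85 and 281 counts in untreated WT and 481, 271 and 1208 in untreated KO. Treated WT held 231, 498 and 619 counts and treated KO 2078, 2627 and 1880. No KO library overlapped the WT libraries of the same condition, and KO was higher by a log2 difference of 1.97 (SE 0.42, edgeR adjusted p 0.00494) in untreated and 2.20 (SE 0.42, edgeR adjusted p 0.00304) in treated cells. Both differences passed the threshold under every alternative that was run. In CPM, KIT went from 6.70 ± 2.75 in untreated WT to 80.9 ± 18.2 in treated KO.

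KIT was higher in every treated library than in every untreated library of the same genotype. The log2 change was 1.39 in WT (SE 0.42, edgeR adjusted p 0.104) and 1.62 in KO (SE 0.41, edgeR adjusted p 0.0521), and neither passed the threshold. With the replicate block both did, at edgeR adjusted p 0.0376 and 0.0143. The difference between the 2 responses was 0.23 (SE 0.57, edgeR adjusted p 1.00).

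CD34, whose product is the classical stem cell antigen, was detected almost only in KO. It held 0 counts in all 3 untreated WT libraries and 0, 0 and 1 in treated WT. In KO it held 4, 0 and 0 counts untreated and 29, 14 and 10 treated. Treated KO was the one group with counts in every library, at 0.706 ± 0.547 CPM, and its pooled counts stood at 47.3 times those of treated WT with a 95% counting interval of 8.14 to 1904. CD34 failed the filter; in the fit without a filter its genotype difference did not pass, with an edgeR adjusted p of 0.260 in untreated and 0.0657 in treated cells. CD38, an ectoenzyme that appears on committed progenitors, held at most 4 counts in any library, and no difference was detectable at this depth.

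CD33, the myeloid receptor, was lower in untreated KO. The gene, on chromosome 19 from 51225064 to 51243860, gave 561, 1114 and 1001 counts in untreated WT and 127, 271 and 571 in untreated KO. After butyrate the counts were 482, 974 and 1352 in WT and 291, 660 and 646 in KO. In CPM the genotypes did not overlap in either condition: untreated KO reached 19.1 at most against at least 30.4 in WT, and treated KO 21.8 against at least 25 in WT. The log2 difference was -1.57 (SE 0.38, edgeR adjusted p 0.00947) in untreated cells and -0.97 (SE 0.37, edgeR adjusted p 0.0886) in treated cells. The latter passed with the replicate block (edgeR adjusted p 0.00939), without replicate 1 of treated WT (edgeR adjusted p 0.0415) and without the libraries numbered 1 (edgeR adjusted p 0.0186). Butyrate left CD33 within the spread of the libraries, with log2 changes of -0.08 in WT (edgeR adjusted p 0.946) and 0.53 in KO (edgeR adjusted p 0.466).

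CD36 was a rare transcript, and it was seen in WT. It held 3, 3 and 5 counts in untreated WT and 42, 15 and 25 in treated WT. In KO it held 1, 0 and 0 counts untreated and 0 in all 3 treated libraries. Treated KO was at least 10.8-fold lower than treated WT when set against a limit of 3 counts per library (edgeR adjusted p 0.00285). CD36 entered the test only through treated WT, the group where it was highest, so this p is no independent support. In the fit without a filter the edgeR adjusted p was 0.00318. The difference with butyrate in WT, a pooled ratio of 7.01 with a 95% counting interval of 3.72 to 14.6, did not pass the threshold (log2 change 2.89, SE 0.96, edgeR adjusted p 0.144), although the groups did not overlap. The untreated genotype difference did not pass either (edgeR adjusted p 0.116), and in KO both conditions were at or under the limit of detection.

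CD47 differed least between genotypes and was higher after butyrate in both. It gave 946, 1377 and 1869 counts in untreated WT and 2350, 2265 and 2818 in treated WT. The KO libraries gave 1139, 1304 and 2212 counts without butyrate and 2712, 3938 and 2991 with it. Each treated library was above each untreated library of its genotype, at 103 ± 17.0 against 59.3 ± 7.02 CPM in WT and 117 ± 18.1 against 65.6 ± 7.22 CPM in KO. The log2 change was 0.83 in KO (SE 0.19, edgeR adjusted p 0.0342) and 0.79 in WT (SE 0.19, edgeR adjusted p 0.0504), the latter falling just short. The replicate block brought the WT change to an edgeR adjusted p of 0.0246. The change in KO was lost when any 1 of 5 of the 6 libraries was left out, with adjusted p up to 0.163, and held without replicate 3 of treated KO. Between genotypes CD47 differed by 0.15 (SE 0.19, edgeR adjusted p 0.640) untreated and 0.19 (SE 0.19, edgeR adjusted p 0.551) treated, within the spread of the libraries.

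The difference between the butyrate responses of the genotypes was read for KIT, CD33, CD44 and CD47, and none passed. In edgeR 0% of all genes passed in this comparison, with 658 genes (4.16%) at an unadjusted p under 0.05, and DESeq2 called 81. CD44 gave 1.65 (SE 1.26), CD33 0.61 (SE 0.52), KIT 0.23 (SE 0.57) and CD47 0.04 (SE 0.27). CD36 has no such value, since its KO libraries were at the limit of detection.

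The genes next to each member on the chromosome were set beside it, as the 5 tested genes nearest on each side. PTPRC, CD24 and ESAM were chosen by values of these groups, so their distance from their neighbours is no separate result. Of all genes tested, 22.6% passed between untreated genotypes and 19% between treated ones. The neighbours spanned from 0.377 Mb around CD33 to 9.82 Mb around CD36. Around PTPRC the 10 neighbours had a median log2 difference of -0.29 between untreated KO and WT. Its nearest tested neighbour upstream, NEK7, averaged 43.9 ± 5.49 CPM in untreated WT and 36.9 ± 2.93 in untreated KO. On the other side NR5A2, a nuclear receptor gene, held 29, 31 and 63 counts in untreated WT and 0 in all 6 KO libraries, at least 12.7-fold lower untreated (edgeR adjusted p 0.0023) and 18.9-fold lower treated (edgeR adjusted p 0.00208). In untreated cells NR5A2 was the 1 neighbour of the 10 to pass the threshold, and the other 9 lay between -0.56 and 0.46. In treated cells 3 of the 10 passed, all lower in KO, namely NR5A2, DENND1B (-1.07, edgeR adjusted p 0.00580) and ZBTB41 (-0.97, edgeR adjusted p 0.0406).

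Around CD44 the median in untreated cells was 0.32, with PDHX at 0.29 (edgeR adjusted p 0.349) and FJX1 at 0.65 (edgeR adjusted p 0.176) on its sides. Of its 10 neighbours 2 passed, CAT, the gene of catalase, lower in KO (-1.87, edgeR adjusted p 1.44e-05) and PRR5L higher (2.61, edgeR adjusted p 0.0169), and both passed in the same direction in treated cells. Around CD24, 8 of 10 neighbours lay on the higher side in untreated KO, with a median of 0.45. CRYBG1 and SEC63 passed, and CRYBG1 was higher by 4.49 (edgeR adjusted p 5.16e-05) untreated and 4.0 (edgeR adjusted p 1.32e-04) treated, the latter a greater distance from 0 than the -3.59 of CD24 in treated cells. Around ESAM, 7 of 10 lay on the higher side, with a median of 0.68, far under the 7.80 of ESAM itself, and VSIG2 and MSANTD2 beside it differed by 1.43 (edgeR adjusted p 0.133) and 0.48 (edgeR adjusted p 0.281). The 1 neighbour of ESAM to pass was NRGN, higher in KO by 2.39 (edgeR adjusted p 5.95e-04) untreated and 1.39 (edgeR adjusted p 0.0158) treated. VSIG2, which belongs to the same adhesion family as ESAM, rose with butyrate in WT (log2 change 3.13, SE 0.67, edgeR adjusted p 0.0322).

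Around CD33 and CD36 most neighbours lay on the lower side. Around CD33, 9 of 10 neighbours lay below 0 in untreated KO with a median of -1.93, of which 2 passed the threshold. In treated cells their median was -0.62 and 0 passed. Around CD36, 9 of 10 lay below 0 untreated and 10 of 10 treated, with medians of -0.97 and -1.26. MAGI2 and DMTF1, whose starts lie 2585 and 6550 kb from that of CD36, were the nearest tested genes on its sides. Both were lower in untreated KO, with log2 differences of -1.62 (edgeR adjusted p 0.0328) and -1.07 (edgeR adjusted p 0.0452). The 730 tested genes of chromosome 7 had a median of -0.78 in untreated KO, with 84.0% of them lower, against a median of 0.02 over all tested genes. On chromosome 3, which holds CD47, 26.8% were lower, with a median of 0.45. Around CD47 itself 7 of 10 neighbours were on the higher side in untreated KO, with a median of 0.27, of which 4 passed, and 1 passed as lower. BBX next to CD47 was higher in KO by 1.68 (edgeR adjusted p 3.71e-04). Around KIT the median was 0.09 in untreated cells, and the 1 neighbour to pass, NMU, was lower in KO (-8.84, edgeR adjusted p 8.02e-07).

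**Figure D3:**
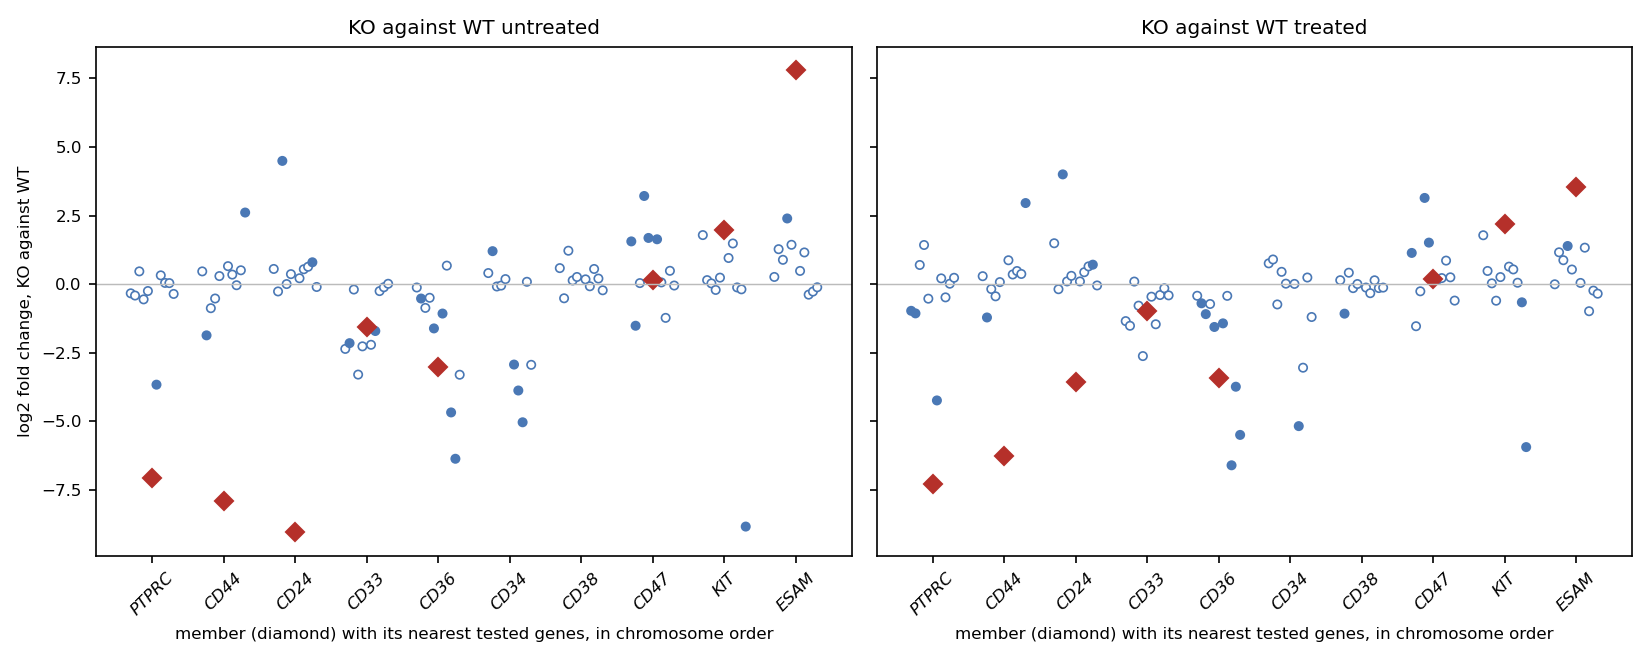
Log2 difference of KO against WT for each member (red diamond, at its bound for CD36 in treated cells) and for up to 10 nearest tested genes in chromosome order (circles, filled where the edgeR adjusted p is under 0.05, at the bound where a group held 0 counts). CD34 and CD38 failed the filter and have no diamond. CD44 stands apart from most of its neighbours, while CD33 and CD36 lie among theirs. PTPRC, CD24 and ESAM stand apart as well, but they were chosen for values in these groups.

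Over the 12 libraries, KBTBD2 was among the 3 genes whose log2 CPM went most closely with that of PTPRC out of 12174 compared (Pearson r 0.979). It averaged 64.9 and 65.1 CPM in WT without and with butyrate, against 39.1 and 35.4 in KO. For CD24 the 3 closest genes were ZFYVE28 (r 0.984), METTL7A (r 0.980) and N4BP3 (r 0.977), all lower in KO and highest in treated WT. For ESAM they were SHANK3 (r 0.978), HEG1 (r 0.972) and ABR (r 0.970), and HEG1, a receptor of endothelial junctions, went from 0.0758 CPM in untreated WT to 14.7 in treated KO. These correlations describe points that share 2 genotypes and 2 treatments.

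The other pan-leukocyte markers, 12 genes of which 11 were tested, split in untreated KO. Over all genes tested, 22.6% passed between untreated genotypes and 19% between treated ones. The counts of genes called in this and the following lists were not tested against such shares. CD53, CD52, CD37 and EVI2B were lower and ITGB2 and CD48 higher, with a list median of -1.04 against 0.02 for all genes. CD53, a tetraspanin of white blood cells, fell from 145 ± 12.3 CPM in untreated WT to 3.70 ± 3.08 in untreated KO (log2 difference -5.26, SE 0.53, edgeR adjusted p 2.47e-05). ITGB2, the shared beta chain of the leukocyte integrins, held 0, 5 and 3 counts in untreated WT and 5, 18 and 62 in untreated KO. In treated cells 2 were higher and 4 lower in KO, and the median was -0.09. PTPRCAP, whose product binds CD45, held 0 counts in all 12 libraries.

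With butyrate, ITGB2, CD52, CD53 and CD37 of this list rose in KO and 0 fell, with a list median of 2.08 against 0.00 for all genes. Over all genes 3.4% passed with butyrate in KO and 2.35% in WT. ITGB2 rose by 4.45 in KO (SE 0.74, edgeR adjusted p 0.00995) and by 4.90 in WT (SE 0.87, edgeR adjusted p 0.0153), where it was the 1 gene of the list to pass. Its treated KO libraries held 396, 1037 and 594 counts. None of the lists had a gene past the threshold for the difference between the responses.

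Among 12 stem and progenitor markers, of which 8 were tested, 1 was higher and 0 lower in KO under each condition. This was CD93, a receptor of early progenitors and endothelium, which held 7, 5 and 30 counts in untreated WT and 991, 1448 and 2320 in untreated KO (log2 difference 6.86, SE 0.62, edgeR adjusted p 1.04e-05). In treated cells the difference was 4.35 (SE 0.53, edgeR adjusted p 1.30e-04). Butyrate raised CD93 in WT, and PROCR (4.02, SE 0.66, edgeR adjusted p 0.00934) and CD82 (3.68, SE 0.67, edgeR adjusted p 0.0141) in KO. The list medians were 1.43 in WT and 1.28 in KO with butyrate, and -0.42 and 0.49 between genotypes untreated and treated. Of all genes, 2.35% and 3.4% passed with butyrate in WT and KO, and 22.6% and 19% between genotypes untreated and treated.

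Myeloid and lymphoid markers were mixed as well. The shares over all genes were 22.6% between untreated and 19% between treated genotypes, and 2.35% and 3.4% with butyrate in WT and KO. Of 12 myeloid genes tested of 20, ITGAM, CSF3R and SIRPA were higher and ANPEP and CD68 lower in untreated KO, and 2 were higher and 0 lower in treated KO. ITGAM, the alpha chain that pairs with ITGB2, held 2, 25 and 55 counts in untreated WT and 341, 560 and 2316 in untreated KO (log2 difference 5.23, SE 0.84, edgeR adjusted p 7.69e-04). ANPEP, an aminopeptidase of myeloid cells, averaged 36.7 ± 10.4 CPM in untreated WT and 4.47 ± 2.90 in untreated KO, and rose with butyrate in KO to 25.5 ± 4.24 (log2 change 2.50, SE 0.40, edgeR adjusted p 0.00855). Butyrate raised 3 myeloid genes in KO and 0 in WT. Of 9 lymphoid genes tested of 20, 2 were higher (CD7 and CD3E) and 3 lower in untreated KO, CD3D and MME among the latter. CD3D held 212, 139 and 461 counts in untreated WT and 0, 1 and 2 in untreated KO, while CD7 held 0, 0 and 16 and 184, 158 and 822. In treated KO 2 lymphoid genes were higher and 1 lower, and butyrate raised 1 in WT and 1 in KO.

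Erythroid and megakaryocyte markers stand for the lineages K562 cells can enter. Again 22.6% of all genes passed between untreated and 19% between treated genotypes, and 2.35% and 3.4% with butyrate in WT and KO. Of 14 erythroid surface genes tested of 15, 3 were higher and 1 lower in untreated KO, and 2 each in treated KO, with medians of -0.02 and -0.36. BCAM, a laminin receptor of red cells, was higher in untreated KO (2.49, SE 0.45, edgeR adjusted p 0.00161), and RHAG was lower (-1.46, SE 0.22, edgeR adjusted p 5.52e-04). Butyrate raised 2 erythroid genes in WT and 1 in KO, with SLC4A1, the band 3 anion exchanger, in both. Of 9 megakaryocyte and platelet genes tested of 14, 3 were higher and 3 lower in untreated KO, 3 higher and 0 lower in treated KO, and ITGA2B rose with butyrate in both genotypes (1.91 in WT, SE 0.45, edgeR adjusted p 0.0463, and 2.25 in KO, SE 0.45, edgeR adjusted p 0.0230).

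ESAM is best known from endothelium, and 12 other endothelial genes were read beside it. Of these 6 were tested and 5 held at most 3 counts in every library. All genes passed at 22.6% between untreated and 19% between treated genotypes, and at 2.35% and 3.4% with butyrate in WT and KO. Between untreated genotypes S1PR1 was higher and PECAM1 lower in KO, and in treated cells S1PR1 was higher (3.05, SE 0.59, edgeR adjusted p 0.00307). TIE1, an endothelial receptor, held 4, 4 and 3 counts in untreated KO and 214, 387 and 145 in treated KO (log2 change 5.75, SE 0.68, edgeR adjusted p 0.00229), and butyrate raised 2 genes of the list in KO and 1 in WT. Of the adhesion family that ESAM belongs to, 6 of 10 were tested. IGSF11 held 218, 340 and 223 counts in untreated WT and 0, 2 and 0 in untreated KO, the 1 lower gene, and CXADR, at 0 counts in untreated WT, was at least 3.95-fold higher in untreated KO. In treated cells IGSF11 was again lower in KO (-4.02, SE 0.99, edgeR adjusted p 0.0132) and no other gene passed, and butyrate raised CXADR and VSIG2 in WT and 0 genes in KO.

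Ligands and partners of the members formed a list of 29 genes, of which 19 were tested. The shares of all genes that passed were 22.6% untreated and 19% treated between genotypes, and 2.35% in WT and 3.4% in KO with butyrate. In untreated KO 4 were higher and 4 lower, in treated KO 2 were higher and 2 lower, and butyrate raised 1 in WT and 3 in KO. THBS1, a thrombospondin that binds CD36 and CD47, held 5, 7 and 8 counts in WT and 113, 131 and 68 in KO without butyrate, and 66, 51 and 36 in WT and 1055, 1341 and 517 in KO with it. It was higher in KO by 4.05 (SE 0.61, edgeR adjusted p 4.44e-04) untreated and 4.03 (SE 0.55, edgeR adjusted p 3.14e-04) treated, and rose with butyrate by 2.93 (SE 0.60, edgeR adjusted p 0.0278) in WT and 2.91 (SE 0.52, edgeR adjusted p 0.0132) in KO. KITLG and SIRPA, the ligand of KIT and the receptor for CD47, were picked out after their values were seen. KITLG held 0 counts in all 6 KO libraries and was at least 10.3-fold lower in treated KO than in treated WT, whose libraries held 0, 28 and 70 counts. SIRPA held 0 counts in untreated WT and 6, 8 and 17 in untreated KO, at least 3.15-fold higher. MSN, which ties CD44 to the cytoskeleton, was lower in untreated KO (-0.95, SE 0.28, edgeR adjusted p 0.0260). Of the kinase family CD45 acts on, FYN was higher (0.78, SE 0.23, edgeR adjusted p 0.0262) and LYN lower (-0.85, SE 0.25, edgeR adjusted p 0.0253) in untreated KO. In treated cells MSN (-0.58, edgeR adjusted p 0.170), FYN (0.37, edgeR adjusted p 0.291) and LYN (-0.47, edgeR adjusted p 0.217) did not pass.

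**Figure D4:**
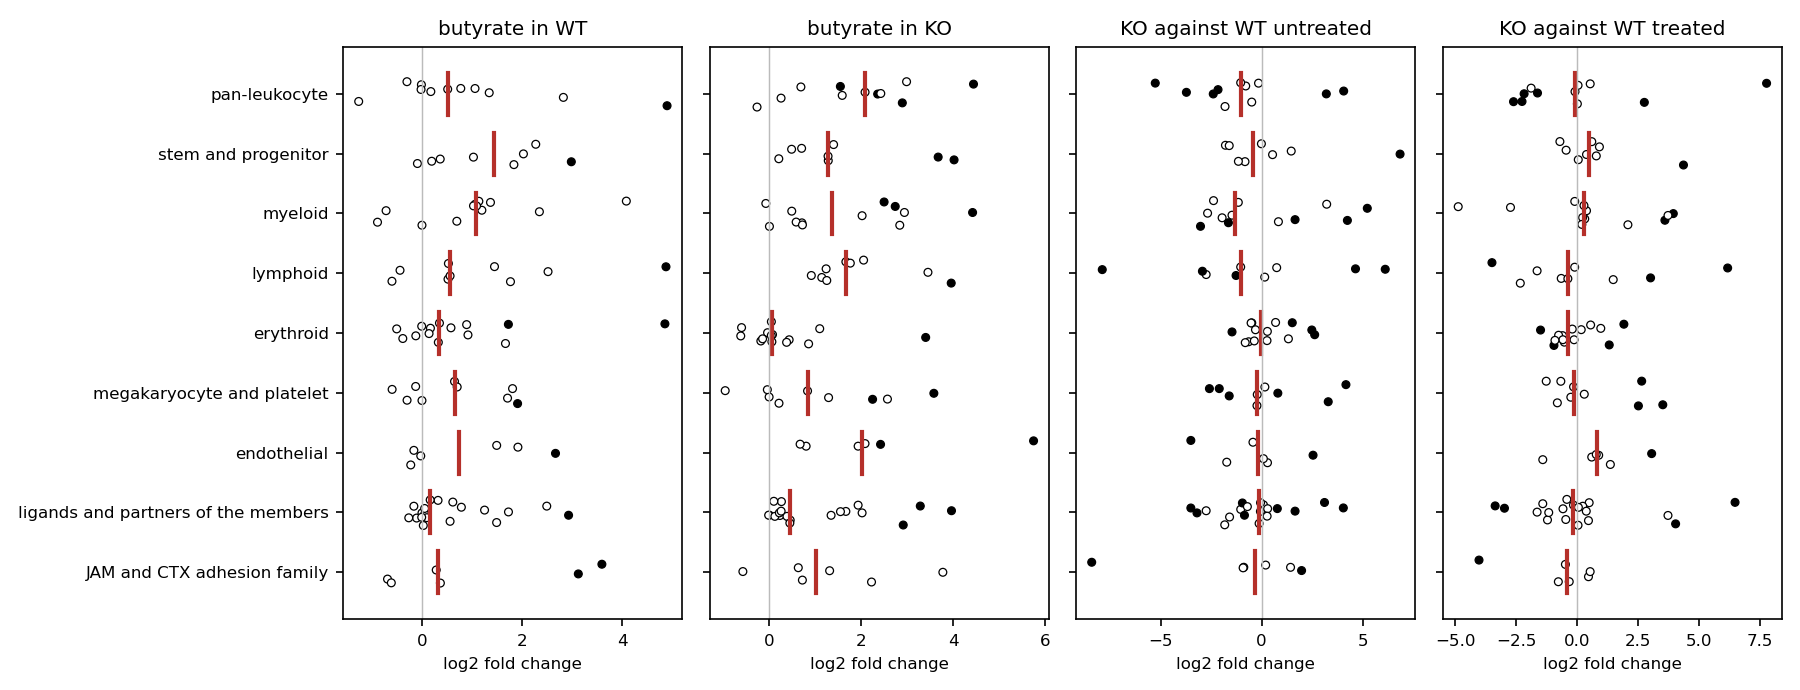
Log2 fold change of each tested gene of 9 lists of surface and partner genes in 4 comparisons, with filled points past an edgeR adjusted p of 0.05, points at the bound where a group held 0 counts in every library, and a red bar at the list median. Pan-leukocyte genes lie mostly to the right with butyrate in KO, at a median of 2.08, and spread to both sides between untreated genotypes.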

How the data were processed

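RNA of 12 K562 libraries (4 groups of 3) was sequenced, and the authors deposited 1 table of raw counts (whole numbers, with unequal sums) by gene symbol; FastQC 0.12.1, STAR 2.7.11b and the build hg38 are named in the submitters' processing notes, while the counting tool, the annotation and the use of strand are not given in the sources used here. Without strand, PTPRC, CD34, CD44, CD36 and ESAM may hold reads of genes annotated on the opposite strand. Groups came from the sample titles. Members and gene lists were chosen with earlier results of these data known. Counts as deposited were analysed in R 4.3.3 with edgeR 4.0.16: filterByExpr (minimum count 10) kept 15805 genes, TMM scaled the libraries, and group means were fitted over the 12 libraries together and compared by quasi-likelihood F-test, with Benjamini-Hochberg adjustment over all genes and a threshold of 0.05. Log2 fold changes carry standard errors (SE). A fold against a group at 0 uses a floor of 3 counts per library, 0.0953 to 0.162 CPM; floors and 95% exact Poisson intervals of pooled counts cover counting error only. The biological coefficient of variation was 0.384. The fit was tested on simulated counts. Two-sided exact permutation tests of 3 libraries against 3 cannot go below p 0.1 and are not quoted.

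No 2 replicates of a group held the same library (smallest chi-square per degree of freedom 31.6). After group means were removed, libraries sharing a replicate number were correlated and set against libraries of different numbers. Same-number correlations were at least 0.195, 0.147 and 0.210 in the butyrate contrasts of WT and KO and the untreated genotype contrast. Those for different numbers were at most 0.186, 0.123 and 0.0692 there. In the treated genotype contrast the ranges overlapped, with a same-number minimum of 0.315 and a different-number maximum of 0.343. The labels name no shared culture or batch, so pairing by number is an assumption. The main fit does not use it, and values with the replicate as a block are given where they change a call. Alternatives were DESeq2 1.42.0 (Wald test), its size factors in edgeR, no filter, at least 10 counts in every library, the block, leaving out each library, leaving out the libraries numbered 1 and, added after seeing the data, library size alone. Genes named from the lists were up to 2 called genes with the largest rise and fall per list and contrast with 50 or more counts in each library of whichever group was higher; other genes behind a count of 5 or fewer are named as chosen after their values were seen. Gene lengths and overlaps came from GENCODE 29 and neighbours from the RefSeq gene table (GRCh38.p14). Results for some single genes are not reported here.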

Additional observations from a re-analysis of the deposited data

How the results depend on the processing

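The calls of CD44 (lower in KO under both conditions), KIT (higher in KO under both) and CD36 (lower in treated KO) held under every alternative in which the gene was tested. CD44 and CD36 entered the fit through WT libraries, where they were high, so for them this is no independent support. Under the filter of at least 10 counts in every library CD44 and CD36 were not tested, which left 1 member called between treated genotypes. Members called with butyrate in WT, 0 as reported, were 1 with DESeq2 size factors or the strict filter, 2 with DESeq2, the replicate block or without the libraries numbered 1, and 0 to 2 without single libraries, the 2 (PTPRC and KIT) without replicate 1 of treated WT. In KO, 1 as reported, they were 2 with DESeq2 size factors, no filter or without the libraries numbered 1, 3 with DESeq2 or the block, and 0 to 1 without single libraries. Genes called with butyrate numbered 372 in WT (1331 with DESeq2, 1361 with the block, 1884 without the libraries numbered 1, 43 to 1243 without single libraries) and 537 in KO (1538, 1852, 2164 and 48 to 833 in that order, and 304 with the strict filter). Between genotypes they numbered 3574 untreated (2334 with the strict filter) and 3009 treated (1947 with the strict filter, 4612 with the block). For the difference between responses they numbered 0 (81 with DESeq2, 2 with no filter, 1 with the strict filter, 3 with the block, 9 without the libraries numbered 1, 0 to 2 without single libraries). Signs reversed only for values within about 1 SE of 0. Without single libraries, CD33 with butyrate in WT ran from -0.23 to 0.19 (0.19 without replicate 2 of untreated WT and 0.12 without replicate 1 of treated WT), the response difference of KIT from -0.12 to 0.69 (negative without replicate 3 of untreated WT or 2 of untreated KO, and -0.14 without the libraries numbered 1) and that of CD47 from -0.041 to 0.20 (negative without replicate 2 or 3 of untreated WT, 3 of treated WT, 1 of untreated KO, or 1 or 2 of treated KO). DESeq2 gave no adjusted p for PTPRC with butyrate in WT. The causes were not tested. At 0 to 5 counts in a library, CD34, CD36 and CD38 were too shallow to give a fold in most groups.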
